A study of Mus musculus with 11 samples.

Results

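The genes of TRAIL, of its receptor and 2 other death receptors, of the death-inducing complex and of necroptosis were followed in mouse pancreatic beta cells. The set was given by name and holds 10 of the 55487 genes in the files: Tnfsf10, Tnfrsf10b, Fas, Tnfrsf1a, Fadd, Casp8, Cflar, Ripk1, Ripk3 and Mlkl. Of these, 8 were expressed highly enough to be tested, among 16252 tested genes. The RNA-seq series held 11 libraries of sorted beta cells from islets of male C57BL/6JRj mice aged 12 weeks. PD-L1high beta cells (n = 4) and PD-L1low beta cells (n = 3) came from islets kept for 20 h in medium with IFNγ at 50 pg/mL, a cytokine of activated T and NK cells. They were separated by how much PD-L1, an immune checkpoint ligand, they carried on their surface. Control beta cells (n = 4) came from islets cultured without IFNγ. Replicates 1 to 4 each had a control and a PD-L1high library, and replicates 2 to 4 also had a PD-L1low library. Per the methods each replicate was an independent biological sample, and whether islets of several animals were pooled is not stated. The labels give no allele or transgene. The cells were sorted after culture of whole islets, so the beta cells met IFNγ beside all other islet cells.

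TRAIL, the protein of Tnfsf10, and Fas ligand are members of the TNF family that bind death receptors on a neighbouring cell. The receptors recruit the adaptor FADD, which gathers caspase-8, and active caspase-8 starts apoptosis through further caspases. c-FLIP, the protein of Cflar, resembles caspase-8 and restrains it. Where caspase-8 is not active, the kinases RIPK1 and RIPK3 can assemble the necrosome, in which RIPK3 phosphorylates MLKL and MLKL breaks the plasma membrane, a lytic death named necroptosis. Beta cells are destroyed by immune cells in type 1 diabetes, and death receptor signalling and interferons have long been studied in that setting.

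The promoter sequences of the members are shown first, because the 2 genes that were higher in PD-L1high cells can then be read beside those without a call. RefSeq windows of 250 bases before and 50 bases after a transcription start (GRCm38.p6) were given for 9 of the 10 members, and Tnfrsf10b is named only. They were searched for a GAS, the letters TTCNNNGAA, an element of IFNγ-responsive promoters, and for the core of an ISRE, GAAA followed by any 2 bases and GAAA, to which interferon regulatory factors bind, on both strands. A GAS reads the same on both strands. The upstream bases of Tnfsf10 (chr3:27316827-27317027, + strand, 201 bases, ending before the first base of the gene in GENCODE) and of Mlkl (chr8:111338206-111338455, - strand, 250 bases), the 2 members that rose, read as follows.
Tnfsf10: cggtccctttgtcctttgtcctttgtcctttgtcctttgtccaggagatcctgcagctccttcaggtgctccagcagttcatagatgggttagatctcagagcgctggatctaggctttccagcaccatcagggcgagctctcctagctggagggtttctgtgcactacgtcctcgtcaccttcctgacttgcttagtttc
Mlkl: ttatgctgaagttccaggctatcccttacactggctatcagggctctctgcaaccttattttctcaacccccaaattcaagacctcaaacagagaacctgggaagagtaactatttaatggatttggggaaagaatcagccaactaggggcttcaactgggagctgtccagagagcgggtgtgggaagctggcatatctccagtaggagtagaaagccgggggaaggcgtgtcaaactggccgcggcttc

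Neither motif was found in the full windows of Tnfsf10 and Mlkl, whereas 4 other members held at least 1 of them. The matches are given with their surroundings, 30 bases each on the strand of the gene, with the motif in capitals and positions counted from the start site (negative upstream).
Fas, GAS at -93 (chr19:34290556-34290585): tcaaagcgatTTCTGGGAAgacctgaatag
Tnfrsf1a, GAS at -244 (chr6:125349473-125349502): gcttccTTCCGTGAAattgacaacaggctt
Ripk1, GAS at -108 (chr13:34002756-34002785): agaagctggtTTCCCGGAAggggcggaggc
Ripk1, GAS at -11 (chr13:34002853-34002882): acttcaaacgTTCCCGGAAatcgaaaagcg
Ripk1, ISRE core at -5 (chr13:34002859-34002888): aacgttcccgGAAATCGAAAagcgcggaac
Cflar, ISRE core at 7 on the opposite strand (chr1:58711487-58711516): ccacgtctgcTTTCGGTTTCtgggcgtctc
The GAS at -11 and the ISRE core at -5 of Ripk1 overlap. All Ripk1 matches lie in a window (chr13:34002624-34002923) inside the gene as GENCODE places it. Its other window, around the first base of the gene (chr13:34002113-34002412), held neither motif. The Tnfrsf1a match also lies inside the gene as GENCODE places it. A GAS was present in at least 1 window of 3 of the 9 members and in 8.3% of all 32851 windows. An ISRE core was present in at least 1 window of 2 of the 9 members and in 3.44% of all windows. A match is a description of these letters only, and a window without one says nothing about the factors.

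The libraries held 10422018 to 15810769 expected counts, of which 5.55% to 13.3% were mitochondrial, the highest share being that of control replicate 1. Beta cell markers (Ins1, Ins2, Iapp, Pdx1, Mafa and 5 others) summed to 63754 to 92506 CPM in PD-L1high cells, 74214 to 79810 CPM in PD-L1low cells and 62761 to 96424 CPM in control cells, and none of the 10 passed the test in any comparison. Before adjustment 2 of them had a p under 0.05 between PD-L1high and control cells, Slc30a8 (log2 fold change -0.39 ± 0.11 SE, adjusted p = 0.156, edgeR) and Slc2a2 (-0.24 ± 0.10, adjusted p = 0.543). CPM scales the counts of each library to a common size after TMM normalization. Of 28 markers of macrophages, lymphocytes and endothelial cells, which the gate is meant to remove, 12 had no count in any library, among them Adgre1, Lyz2, Cd3e, Cd3g and Cdh5. The highest CPM of any of the 28 was 9.04, for C1qa in PD-L1high replicate 3. C1qa, Cd68 and Fcer1g, all on the macrophage list, had counts in every library. Of the duct cell markers, Spp1 (up to 466 CPM, in PD-L1high replicate 1) and Krt7 (265 to 343 CPM over all libraries) had high values. The others were scarce: Krt19 had at most 1.29 CPM in any library, Sox9 0.157 CPM and Cftr 0.129 CPM. The 5 duct markers summed to 370.1 to 785 CPM in PD-L1high cells, 505 to 553 CPM in PD-L1low cells and 401 to 545 CPM in control cells, and none of the 3 that could be tested passed in any comparison. Since these are bulk samples, more cells that make a transcript cannot be told apart from more of it per cell.

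PD-L1high cells had far more mRNA of the ligand TRAIL and of the necroptosis executioner MLKL than control cells or PD-L1low cells, while no other member passed the test. Against control cells, 2 of the 8 tested members rose and none fell, Tnfsf10 by 9.64-fold and Mlkl by 4.74-fold. Among all tested genes 0.941% rose and 0.0492% fell in that comparison. Against PD-L1low cells the same 2 members rose, Tnfsf10 by 5.59-fold and Mlkl by 3.20-fold, and none fell, beside 0.64% of all tested genes that rose and 0.0923% that fell. In PD-L1low against control cells no member passed the test, beside 0.0615% of all tested genes that rose and 0.0185% that fell. The test was edgeR's quasi-likelihood test with the replicate as a block and Benjamini-Hochberg adjustment of p over all tested genes. The 3 comparisons share libraries, so they do not replicate each other.

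**Figure D1:**
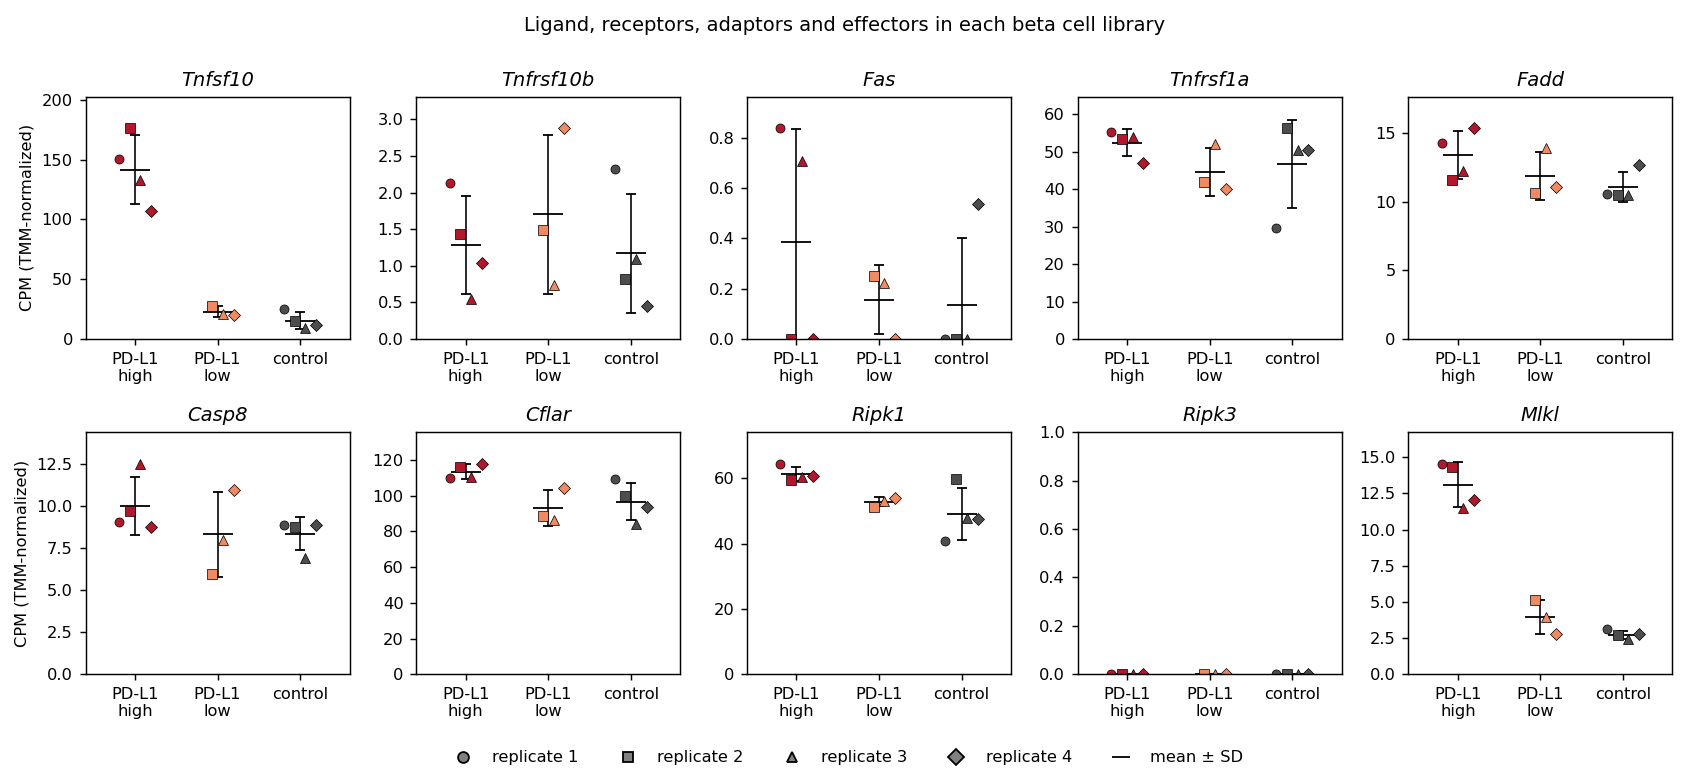
CPM of each of the 10 genes in every library, with PD-L1high cells at the left, PD-L1low cells in the middle and control cells at the right. Points are libraries with 1 symbol per replicate, bars are mean ± SD, and each vertical axis starts at 0 with its own scale. Tnfsf10 (107 to 176 CPM) and Mlkl (11.5 to 14.5 CPM) stand clear of both other groups in PD-L1high cells, and Ripk3 is at 0 throughout.

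Tnfsf10 (ENSMUSG00000039304, chr3:27317028-27342427, + strand, GENCODE on GRCm38) encodes TRAIL. It had 151, 176, 133 and 107 CPM in PD-L1high replicates 1 to 4. It had 27.9, 20.7 and 20.2 CPM in PD-L1low replicates 2 to 4, and 25.1, 15.3, 9.24 and 11.9 CPM in control replicates 1 to 4. Every PD-L1high library was therefore above every other library, and the lowest PD-L1high library stood at 107 CPM against 27.9 CPM in the highest of the others. The log2 fold change was 3.27 ± 0.17 (SE) against control cells (adjusted p = 1.94e-08, edgeR) and 2.48 ± 0.19 against PD-L1low cells (adjusted p = 2.11e-06, edgeR). Within replicates the PD-L1high to control ratio was 6.00, 11.5, 14.3 and 8.98, and the PD-L1high to PD-L1low ratio was 6.31, 6.40 and 5.29 in replicates 2 to 4.

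For TRAIL the PD-L1low cells lay nearer to control cells than to PD-L1high cells. Tnfsf10 was 1.82, 2.24 and 1.70 times the control library of the same replicate in PD-L1low replicates 2 to 4. It was thus higher in 3 of 3 pairs by number, though the data do not show that the numbers pair the samples. Its log2 fold change was 0.79 ± 0.19 (SE) and did not pass the adjustment (unadjusted p = 0.000806, adjusted p = 0.364, edgeR). The 3 PD-L1low libraries overlapped the control libraries through control replicate 1 alone, at 25.1 CPM. This is the replicate with no PD-L1low library and with the highest mitochondrial share, 13.3%. Without control replicate 1 the log2 fold change was 0.93 and passed the test (adjusted p = 0.00829, edgeR). It also passed without PD-L1high replicate 1 (adjusted p = 0.0122, edgeR) and without replicate 1 (0.00884). Without PD-L1high replicate 1, control replicate 1 was alone in its block and could not inform the comparison. These fits are therefore the same exclusion, not separate support. With every library kept, Tnfsf10 passed with DESeq2 and the replicate block (log2 fold change 0.80, adjusted p = 0.0324, DESeq2). It also passed without the filter on low counts (0.80, adjusted p = 0.000346, edgeR). In the other 20 of 25 alternatives it was not called. Whether the RNA quality of control replicate 1 played a part was not tested.

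Of the 3 receptors, Fas was not tested and the other 2 gave no call, and Fas and Tnfrsf10b were scarce. Tnfrsf10b (ENSMUSG00000022074, chr14:69767472-69784411, + strand), the mouse death receptor for TRAIL, had 33, 18, 7 and 10 counts in PD-L1high replicates 1 to 4. It had 18, 10 and 41 counts in PD-L1low replicates 2 to 4, and 30, 11, 18 and 5 counts in control replicates 1 to 4. This made 1.29 ± 0.66 CPM (SD, n = 4) in PD-L1high cells, 1.70 ± 1.09 CPM (n = 3) in PD-L1low cells and 1.17 ± 0.81 CPM (n = 4) in control cells, and the groups overlapped fully. The log2 fold change was 0.10 ± 0.66 (SE) for PD-L1high against control cells (adjusted p = 0.984, edgeR). The 95% interval of -1.30 to 1.504 includes a 2-fold change either way. The sign of the fold change turned in fits that left out control replicate 2 or 4 or PD-L1high replicate 2, with values down to -0.26.

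Fas (ENSMUSG00000024778, chr19:34290666-34327772, + strand), the receptor of Fas ligand, was close to the limit of detection and was not tested. It had 13, 0, 9 and 0 counts in PD-L1high replicates 1 to 4, 3, 3 and 0 counts in PD-L1low replicates 2 to 4, and 0, 0, 0 and 6 counts in control replicates 1 to 4. Counts were thus present in 5 of 11 libraries, in no group in all libraries. Pooled over the libraries of a group, this was 0.436 CPM (exact Poisson 95% interval 0.273 to 0.660) in PD-L1high cells, 0.151 CPM (0.0553 to 0.328) in PD-L1low cells and 0.111 CPM (0.0408 to 0.242) in control cells. These intervals cover counting error only, and the PD-L1high value rests on replicates 1 and 3. A small noncoding gene, Gm27818, lies on the same strand within Fas.

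Tnfrsf1a (ENSMUSG00000030341, chr6:125349362-125362484, + strand), the main TNF receptor, was well expressed in all groups. It had 55.4, 53.5, 54.0 and 47.0 CPM in PD-L1high replicates 1 to 4. It had 42.0, 52.1 and 40.0 CPM in PD-L1low replicates 2 to 4, and 29.7, 56.3, 50.4 and 50.4 CPM in control replicates 1 to 4. The groups overlapped, and control replicate 1 was the lowest library of all. On the log2 scale the difference was 0.20 ± 0.16 (SE, 95% interval -0.13 to 0.53) for PD-L1high against control cells and 0.33 ± 0.18 for PD-L1high against PD-L1low cells (adjusted p = 0.796 and 0.646, edgeR). For PD-L1low against control cells it was -0.13 ± 0.17. Without control replicate 1 the PD-L1high against control value was -0.03.

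The adaptor, caspase-8 and its inhibitor gave no call either. Fadd (ENSMUSG00000031077, chr7:144577318-144582463, - strand), the adaptor, had 14.3, 11.6, 12.3 and 15.4 CPM in PD-L1high replicates 1 to 4. It had 10.7, 13.9 and 11.1 CPM in PD-L1low replicates 2 to 4, and 10.5, 10.5, 10.5 and 12.7 CPM in control replicates 1 to 4. On the log2 scale Fadd differed by 0.27 ± 0.19 (SE, 95% interval -0.13 to 0.67) in PD-L1high against control cells (adjusted p = 0.774, edgeR). The PD-L1high library was above the control library of the same number in each of the 4 replicates, but the groups overlapped. An antisense gene, Faddos, overlaps Fadd, and the sources used here do not state whether the counting used strand.

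Casp8 (ENSMUSG00000026029, chr1:58795374-58847503, + strand), the initiator caspase, had 9.01, 9.70, 12.5 and 8.72 CPM in PD-L1high replicates 1 to 4. It had 5.96, 7.99 and 10.95 CPM in PD-L1low replicates 2 to 4, and 8.84, 8.77, 6.88 and 8.87 CPM in control replicates 1 to 4. All 3 groups overlapped, and the log2 fold change was 0.26 ± 0.24 (SE, 95% interval -0.25 to 0.78) for PD-L1high against control cells (adjusted p = 0.832, edgeR).

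Cflar (ENSMUSG00000026031, chr1:58711508-58758884, + strand), the gene of the inhibitor c-FLIP, had 109.7, 116, 111 and 118 CPM in PD-L1high replicates 1 to 4. It had 88.5, 86.4 and 105 CPM in PD-L1low replicates 2 to 4, and 109.3, 99.6, 84.2 and 93.8 CPM in control replicates 1 to 4. Every PD-L1high library was above every other library, by a narrow margin over control replicate 1, but the difference was small: the log2 fold change was 0.24 ± 0.10 (SE) against control cells and 0.27 ± 0.12 against PD-L1low cells. Neither passed the adjustment (unadjusted p = 0.0403 and 0.0386, adjusted p = 0.624 and 0.554, edgeR). The ratio of Cflar to Casp8 per transcript length (TPM) had a median of 7.34 in PD-L1high cells, 7.37 in PD-L1low cells and 7.43 in control cells, and single libraries ranged from 4.53 to 10.1.

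The necrosome genes fell into 3 patterns: Ripk1 gave no call, Ripk3 was not detected and Mlkl rose. Ripk1 (ENSMUSG00000021408, chr13:34002363-34037147, + strand), the kinase shared by TNF receptor signalling and the necrosome, had 64.5, 59.5, 60.5 and 60.9 CPM in PD-L1high replicates 1 to 4. It had 51.3, 53.1 and 54.0 CPM in PD-L1low replicates 2 to 4, and 40.8, 59.8, 47.8 and 47.7 CPM in control replicates 1 to 4. The PD-L1high libraries were above all PD-L1low libraries and overlapped the control libraries at replicate 2. The log2 fold change was 0.33 ± 0.12 (SE) against control cells (unadjusted p = 0.0162, adjusted p = 0.484, edgeR) and 0.24 ± 0.14 against PD-L1low cells (adjusted p = 0.662, edgeR). Serpinb6a and a pseudogene overlap Ripk1 on the opposite strand, and a further pseudogene overlaps it on the same strand.

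Ripk3 (ENSMUSG00000022221, chr14:55784995-55788865, - strand), the kinase that phosphorylates MLKL, had 0 counts in all 4 PD-L1high, all 3 PD-L1low and all 4 control libraries. A count of 0 allows up to 3 counts, which is 0.0594 CPM over the PD-L1high libraries, 0.0753 CPM over the PD-L1low libraries, 0.0556 CPM over the control libraries and 0.0208 CPM over all 11. In a single library it allows 0.181 to 0.312 CPM. Ripk3 mRNA was thus below what this depth could detect in every group, with and without IFNγ.

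Mlkl (ENSMUSG00000012519, chr8:111311797-111338177, - strand), the pore-forming pseudokinase, had 14.5, 14.3, 11.5 and 12.05 CPM in PD-L1high replicates 1 to 4. It had 5.13, 3.99 and 2.81 CPM in PD-L1low replicates 2 to 4, and 3.10, 2.70, 2.42 and 2.78 CPM in control replicates 1 to 4. All PD-L1high libraries were above all others, and PD-L1low and control libraries overlapped. Within replicates the PD-L1high to control ratio was 4.69, 5.30, 4.75 and 4.34, a narrower spread than for Tnfsf10, and the PD-L1high to PD-L1low ratio was 2.79, 2.87 and 4.29. The log2 fold change was 2.25 ± 0.26 (SE) against control cells (adjusted p = 0.000114, edgeR) and 1.68 ± 0.28 against PD-L1low cells (adjusted p = 0.00726, edgeR). The call against PD-L1low cells was lost without PD-L1high replicate 2 (adjusted p = 0.0783, edgeR) or 3 (0.0611) and without PD-L1low replicate 3 (0.0522) or 4 (0.0697). It was also lost without all libraries of replicate 2 (0.0813), 3 (0.127) or 4 (0.0652). The log2 fold change of Mlkl against PD-L1low cells stayed between 1.47 and 1.83 in all fits run. For PD-L1low against control cells the log2 fold change was 0.57 ± 0.29 (unadjusted p = 0.0666, adjusted p = 1.00, edgeR). A pseudogene, Gm45712, overlaps Mlkl on the opposite strand.

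**Figure D2:**
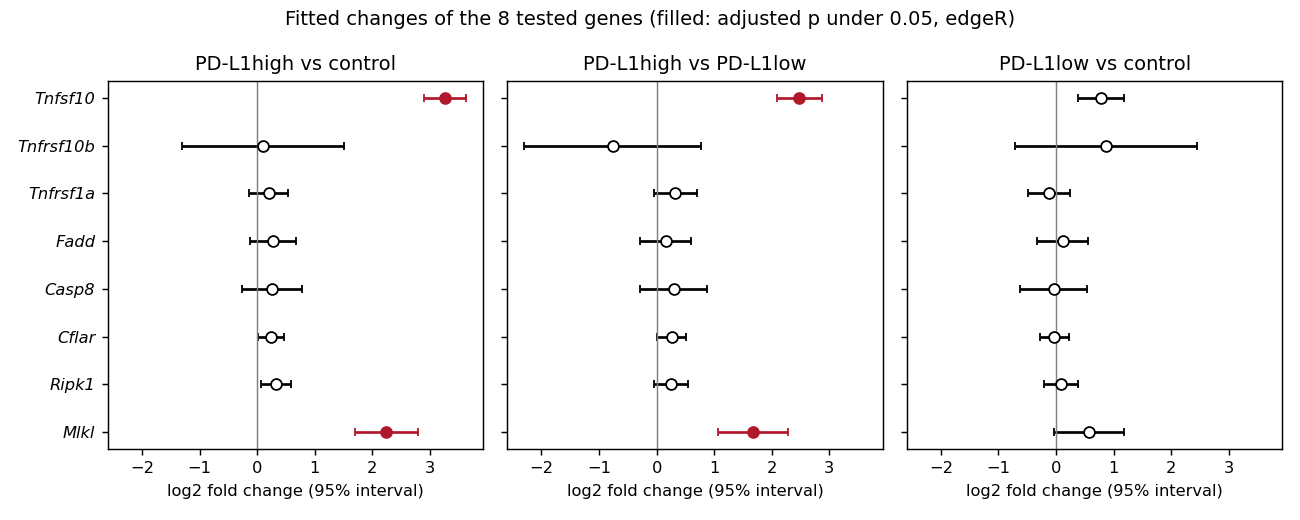
Fitted log2 fold change of the 8 tested genes with its 95% interval, for PD-L1high against control cells, PD-L1high against PD-L1low cells and PD-L1low against control cells. Filled points passed the adjusted threshold of 0.05: Tnfsf10 (3.27 and 2.48) and Mlkl (2.25 and 1.68) in the 2 comparisons of PD-L1high cells, and none in the third.

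Over the 8 tested members the median log2 fold change was 0.27 for PD-L1high against control cells, beside -0.02 for all tested genes, and 0.28 for PD-L1high against PD-L1low cells, beside 0.00 to 2 decimals for all tested genes. For PD-L1low against control cells it was 0.10, beside 0.00. Before adjustment 4, 3 and 1 members had a p under 0.05 in these 3 comparisons (edgeR), all of them higher, beside 4.13%, 4.24% and 0.991% of all tested genes. The only such member between PD-L1low and control cells was Tnfsf10. There DESeq2 with the replicate block called 1 member, which was Tnfsf10, and limma-voom called 0. Every PD-L1high library exceeded every control library for 3 members (Tnfsf10, Cflar and Mlkl) and every PD-L1low library for 4 (those 3 and Ripk1), beside 2.68% and 4.41% of all tested genes. For PD-L1low against control cells this held for 0 members, beside 1.28% of genes.

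Markers of other islet endocrine cells also moved between the 2 sorted populations, and their values stand beside the Tnfsf10 and Mlkl differences. The pancreatic polypeptide cell genes Ppy and Pyy summed to 233 to 562 CPM in PD-L1high cells, 26.8 to 33.5 CPM in PD-L1low cells and 150 to 382 CPM in control cells. The 8 alpha cell markers summed to 969.6 to 1988 CPM in PD-L1high cells, 707 to 835 CPM in PD-L1low cells and 792 to 1874 CPM in control cells, and the 5 delta cell markers to 11.6 to 39.5 CPM in PD-L1high cells, 3.51 to 9.27 CPM in PD-L1low cells and 6.82 to 33.4 CPM in control cells. Ppy, Pyy, Gcg and Sst passed the test as higher in PD-L1high than in PD-L1low cells. Ppy and Pyy were also lower in PD-L1low than in control cells, and Ppy was higher in PD-L1high than in control cells (log2 fold change 0.67 ± 0.10 SE, adjusted p = 0.00183, edgeR). Their part in the Tnfsf10 and Mlkl differences was not tested. The 12 macrophage markers summed to 10.4 to 13.1 CPM in PD-L1high cells, 7.95 to 11.7 CPM in PD-L1low cells and 7.99 to 12.5 CPM in control cells. Adgre1 and Lyz2 were at 0, while C1qa had 3.65 to 9.04 CPM and Cd68 1.57 to 4.44 CPM over all libraries.

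Compared per transcript length, Cflar had the highest mean level of the members in every group, and Tnfsf10 moved furthest in the order between control and PD-L1high cells. In control cells the order by mean TPM (a share of transcripts that accounts for length, as given in the files) was Cflar (30.1 ± 3.4, SD, n = 4), Tnfrsf1a (23.8 ± 8.2), Ripk1 (14.4 ± 3.2), Casp8 (4.09 ± 0.66), Tnfsf10 (2.87 ± 0.81), Fadd (2.82 ± 0.55), Mlkl (2.23 ± 0.58), Tnfrsf10b (0.355 ± 0.192) and Fas (0.108 ± 0.215), with Ripk3 at 0. In PD-L1low cells Cflar (27.5 ± 6.6, n = 3), Tnfrsf1a (22.9 ± 6.7) and Ripk1 (15.7 ± 1.8) again came before Tnfsf10 (4.66 ± 1.31), Casp8 (3.94 ± 0.75), Fadd (3.07 ± 0.78) and Mlkl (3.00 ± 1.67). In PD-L1high cells Tnfsf10 reached 30.6 ± 8.8 TPM (n = 4), after Cflar (39.8 ± 7.5) and before Tnfrsf1a (28.5 ± 6.0) and Ripk1 (20.3 ± 3.7), and Mlkl reached 8.43 ± 2.81 TPM, before Casp8 (5.57 ± 0.88) and Fadd (3.63 ± 0.58).

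Many neighbours in these orders overlapped. In control and in PD-L1low cells Cflar overlapped with Tnfrsf1a and Tnfrsf1a with Ripk1, while all Ripk1 libraries stood above those of the next gene. In PD-L1high cells Cflar, Tnfsf10, Tnfrsf1a and Ripk1 each overlapped with the next, all Ripk1 libraries stood above those of Mlkl, and Mlkl overlapped with Casp8. The members from Casp8 to Mlkl overlapped with their neighbours in control and PD-L1low cells, and all libraries of Mlkl there were above those of Tnfrsf10b. The effective length that enters TPM varied between libraries for some genes, from 761 to 1746 bases for Mlkl and from 2545 to 4092 bases for Cflar, so TPM is used only to compare levels between genes. CPM divided by effective length gave the same order in each group. It uses the same counts and effective lengths as TPM, so it is no separate check on the varying lengths.

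**Figure D3:**
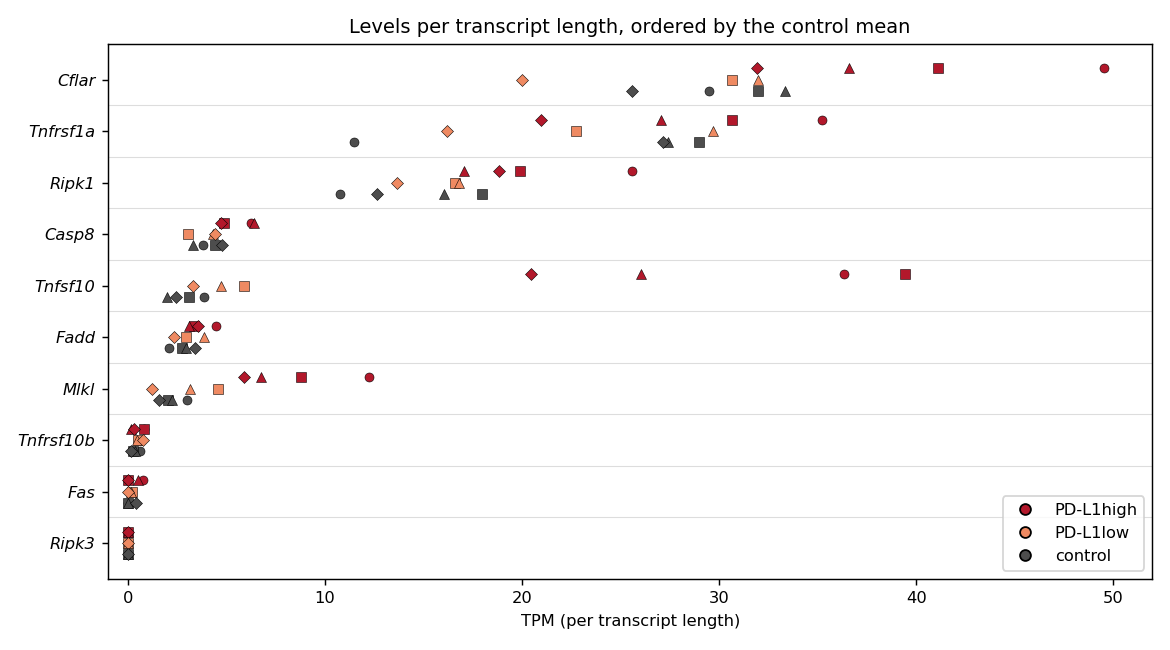
TPM of the 10 genes in every library, ordered by their mean in control cells. Each gene has PD-L1high libraries above, PD-L1low libraries in the middle and control libraries below, with 1 symbol shape per replicate (circle 1, square 2, triangle 3, diamond 4). Tnfsf10 lies between 2.00 and 3.87 TPM in control libraries and reaches the level of Cflar and Tnfrsf1a in PD-L1high libraries.

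Levels of the ligand and of its death receptor Tnfrsf10b, decoy receptors left out, can also be set against each other within a library. Per transcript length (TPM), Tnfsf10 was 43.8 to 145 times Tnfrsf10b in PD-L1high libraries. It was 4.37 to 11.6 times in PD-L1low libraries and 5.26 to 15.5 times in control libraries. In counts, which also grow with transcript length, the ratios were 71 to 241 in PD-L1high, 7.02 to 28.0 in PD-L1low and 8.50 to 26.6 in control libraries. The PD-L1high ratios were all above those of the other libraries, and the PD-L1low and control ratios overlapped. Tnfrsf10b had as few as 5 counts in a library, so these ratios carry a large counting error.

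Most other genes of the pathway did not pass the test. Outside the members, 65 genes on 5 lists (death ligands, death and decoy receptors, adaptors and regulators of the receptor complex, necrosome and membrane repair, and caspases with the mitochondrial arm) were followed, of which 55 could be tested. In PD-L1high against control cells 2 of 55 rose and none fell, beside 0.941% and 0.0492% of all tested genes, and 40 of 55 were above 0, with a median log2 fold change of 0.13 beside -0.02 for all genes. Before adjustment 12 had a p under 0.05, all higher, beside 4.13% of all tested genes that were higher at that p. Between PD-L1low and control cells none passed, with 2 before adjustment, of which 1 was higher, beside 0.991% of all tested genes. In PD-L1high against PD-L1low cells 1 rose, beside 0.64% of all tested genes, with 10 before adjustment, of which 9 were higher, beside 4.24%.

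Among the necrosome genes, Zbp1, a sensor of Z-form nucleic acids that can engage RIPK3, had 16.5, 18.9, 20.0 and 7.68 CPM in PD-L1high replicates 1 to 4. It had 1.49, 2.00 and 0.0702 CPM in PD-L1low replicates 2 to 4, and 1.01, 0, 0.0604 and 0.179 CPM in control replicates 1 to 4. The PD-L1high libraries were far above all others. Its log2 fold change was 5.94 ± 0.80 (SE) against control cells (adjusted p = 0.00486, edgeR), fitted on 13, 0, 1 and 2 control counts, and 3.68 ± 0.75 against PD-L1low cells, which did not pass (adjusted p = 0.0804, edgeR). Without replicate 3 the call against control cells was lost (adjusted p = 0.0584, edgeR).

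Adar, which edits double-stranded RNA and restrains ZBP1, had 106, 106, 109.8 and 99.0 CPM in PD-L1high replicates 1 to 4. It had 90.6, 70.5 and 54.5 CPM in PD-L1low replicates 2 to 4, and 72.8, 63.1, 67.1 and 64.9 CPM in control replicates 1 to 4. The PD-L1high libraries were above all others, by a log2 fold change of 0.65 ± 0.12 (SE) over control cells (adjusted p = 0.0139, edgeR). The call was lost without control replicate 3 (adjusted p = 0.0932, edgeR), PD-L1high replicate 3 (0.0937) or PD-L1high replicate 4 (0.0690), and without all libraries of replicate 3 (0.224).

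On the mitochondrial arm of apoptosis, Bak1, whose product permeabilizes the outer mitochondrial membrane, had 9.14, 10.01, 12.8 and 14.1 CPM in PD-L1high replicates 1 to 4. It had 8.45, 8.06 and 9.20 CPM in PD-L1low replicates 2 to 4, and 5.27, 6.97, 8.15 and 9.41 CPM in control replicates 1 to 4. The PD-L1high libraries overlapped both other groups at their lowest, replicate 1, and the log2 fold change of 0.64 ± 0.20 (SE) against control cells did not pass (adjusted p = 0.321, edgeR). Cycs, the gene of cytochrome c, had a log2 fold change of 0.42 ± 0.17 against control cells and did not pass either (adjusted p = 0.559, edgeR).

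Among the adaptors and regulators, Ikbkg, the gene of NEMO, a scaffold of the kinase complex that activates NF-κB below TNF receptors, was the only gene of its list that passed the test between the sorted populations. It had 110.2, 104, 92.8 and 97.9 CPM in PD-L1high replicates 1 to 4, 63.2, 53.4 and 58.6 CPM in PD-L1low replicates 2 to 4, and 85.9, 76.4, 63.9 and 78.7 CPM in control replicates 1 to 4. The control libraries lay between the sorted populations. The log2 fold change was 0.75 ± 0.11 (SE) against PD-L1low cells (adjusted p = 0.00240, edgeR) and 0.42 ± 0.10 against control cells (adjusted p = 0.0709, edgeR), and the call against PD-L1low cells was lost without replicate 3 (adjusted p = 0.113, edgeR). Tnfaip3, whose product A20 restrains NF-κB, spread from 3.22 to 31.5 CPM over the PD-L1high libraries against 4.39 to 6.67 CPM over the control libraries and did not pass (log2 fold change 1.36 ± 0.36, adjusted p = 0.161, edgeR).

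The other death ligands and receptors gave no call. Fasl, Ltb and Tnfsf14 had no count in any library, and Tnf had 7 and 6 counts in PD-L1high replicates 1 and 2 and none elsewhere. Tnfsf12, the gene of TWEAK and the only other ligand that could be tested, had a log2 fold change of -0.39 ± 0.31 (SE) for PD-L1high against control cells. Tnfrsf11b, the gene of osteoprotegerin, which can bind TRAIL as a soluble decoy, had 26.9, 11.4, 9.98 and 8.10 CPM in PD-L1high replicates 1 to 4 against 7.68, 11.2, 4.77 and 7.70 CPM in control replicates 1 to 4. These overlapped, with PD-L1high replicate 1 alone well above the rest (log2 fold change 0.73 ± 0.29, adjusted p = 0.530, edgeR). Tnfrsf22, a mouse decoy receptor for TRAIL, had a mean of 7.89 CPM in PD-L1high, 10.6 CPM in PD-L1low and 10.4 CPM in control cells. Its log2 fold change in PD-L1high cells was -0.40 ± 0.20 against control cells (adjusted p = 0.668, edgeR) and -0.49 ± 0.22 against PD-L1low cells (adjusted p = 0.561, edgeR). Tnfrsf23, also on the list of death and decoy receptors, had a mean of 30.8 CPM in PD-L1high, 28.2 CPM in PD-L1low and 29.1 CPM in control cells.

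**Figure D4:**
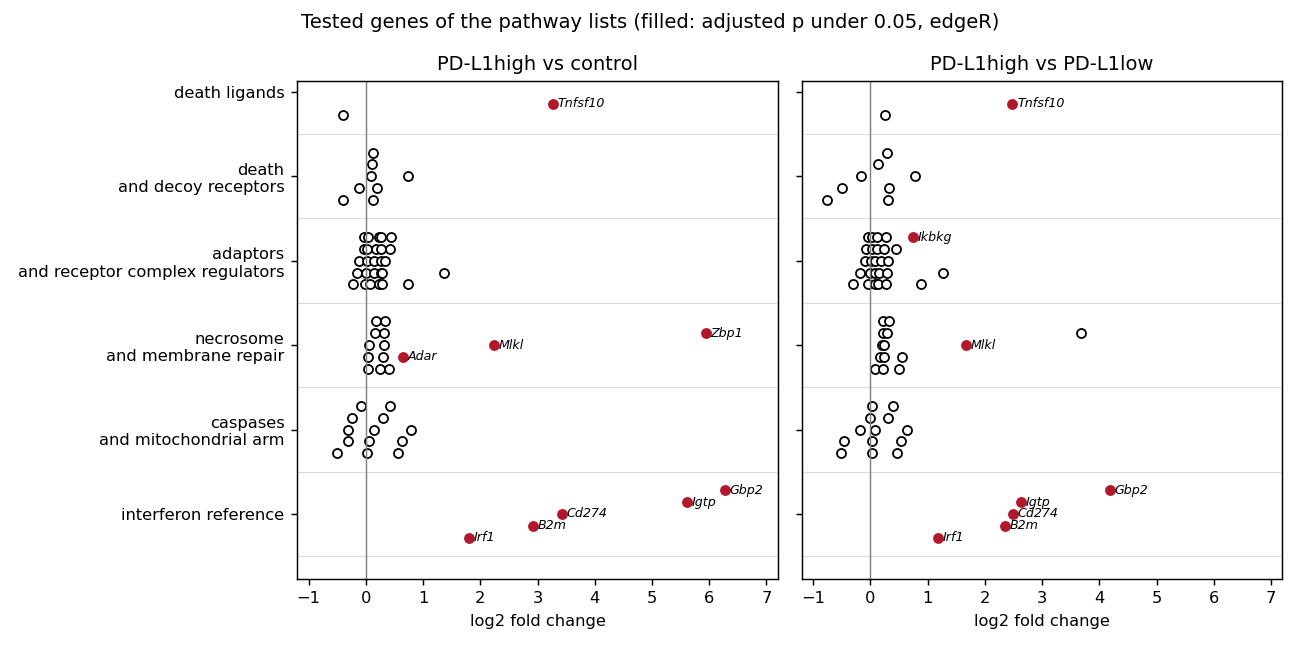
Log2 fold change of the tested genes on the 5 pathway lists, members included, and on a list of 5 interferon-induced genes, for PD-L1high against control cells at the left and PD-L1high against PD-L1low cells at the right. Each point is a gene, filled where the adjusted p was under 0.05, and its height within a list has no meaning. Mlkl, Zbp1, Adar and Tnfsf10 are the filled pathway genes at the left (log2 fold changes 0.65 to 5.94) and Tnfsf10, Mlkl and Ikbkg at the right (0.75 to 2.48).

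The size of the Tnfsf10 and Mlkl changes can be read against genes known to be induced by interferon, a list of Cd274, Irf1, Igtp, Gbp2 and B2m. All 5 rose in PD-L1high against control cells, by log2 fold changes of 1.80 to 6.27, and in PD-L1high against PD-L1low cells, by 1.17 to 4.18. In PD-L1low against control cells Cd274 and Igtp rose, by 0.94 and 2.97. Irf1 (0.63), Gbp2 (2.09) and B2m (0.58) did not pass there, nor did Tnfsf10 (0.79) and Mlkl (0.57). Cd274 encodes PD-L1 itself, on which the cells were sorted, so its own difference between the sorted populations is not independent of the sort.

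For each of the 2 members that rose, the 3 tested genes with the most similar pattern over the 11 libraries were taken. Likeness was the root mean square difference of log2 CPM, each gene centred on its mean, among 16251 other tested genes. For Tnfsf10 the nearest gene was Cd274 at 0.226, then Gbp7, a guanylate-binding protein gene, at 0.307 and Oasl2, an oligoadenylate synthetase-like gene, at 0.353, against a median of 1.55 over all genes. Cd274 had a mean of 218 CPM in PD-L1high cells, 38.1 CPM in PD-L1low cells and 20.4 CPM in control cells, where Tnfsf10 had 142 CPM in PD-L1high, 22.9 CPM in PD-L1low and 15.4 CPM in control cells. For Mlkl the nearest were Serping1, the gene of the complement C1 inhibitor, at 0.230, Parp14, a mono-ADP-ribosyltransferase gene, at 0.279 and H2-T23, a nonclassical MHC class I gene, at 0.292, against a median of 1.06. Serping1 had a mean of 260.3 CPM in PD-L1high cells, 66.0 CPM in PD-L1low cells and 48.6 CPM in control cells, where Mlkl had 13.1 CPM in PD-L1high, 3.98 CPM in PD-L1low and 2.75 CPM in control cells.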

How the data were processed

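Per the methods, islets were dispersed and beta cells sorted as EpCam+, CD24low and CD71+ cells without CD45, TER119 or CD31. Libraries were made from 5 ng of RNA with the Ovation Solo kit (random primers, strand-specific, rRNA depleted) and read as paired 75-base reads. Random priming gives reads along whole transcripts, so counts scale with length. The authors mapped reads with STAR 2.5.2b to GRCm38.p6 with GENCODE M23 and quantified them with RSEM, whose version and strand setting are not given in the sources used here. The submitters' processing notes also name DESeq2 1.32.0.

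The authors deposited RSEM expected counts, which were not normalized, and TPM and effective lengths per gene for each library. Rounding them to integers for the count test changed totals by at most 0.000388%. Genes were matched by Ensembl ID (55141 of 55487 had a symbol). Library totals ran from 10422018 to 15810769, and no 2 libraries of a group agreed within sampling noise.

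Genes were kept by filterByExpr with a count minimum of 10 (16252 genes) and tested in edgeR 4.0.16 (R 4.3.3, limma 3.58.1) with TMM and a robust quasi-likelihood fit on condition and replicate over all 11 libraries. Adjusted p-values (threshold 0.05) were taken over all tested genes in each comparison, and SE is the log2 fold change divided by the square root of F. CPM used TMM-normalized library sizes, and likeness used log2 CPM with a prior count of 2. Replicate is in the model because the methods name a batch term. What the batch was is not stated.

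The alternatives were no replicate block, other scalings, filters and samples, DESeq2 1.42.0, limma-voom and leaving out each library or replicate. The same alternatives for the pathway genes and the other cell type markers were added after the data had been seen. The members and all lists were chosen with earlier results of these data known. All 10 members are described. Of the other pathway genes, those past the threshold in any comparison are named and, in a list without any, the 2 with the smallest p. The 3 genes most like each called member are named too. Tnfaip3, Tnfrsf23 and the ligands without counts were named after their values were seen. For 3 genes of the lists the result is not reported here, and the pathway counts leave them out. The fitting script was tested on simulated data with known 2-fold and 4-fold changes. Over the 3 comparisons it found 54.5% to 58% of the 2-fold changes and 77% to 80% of the 4-fold changes. Of the calls in the simulated data, 2.88% to 8.61% were false. Tables were made with Python 3.11.15 (pandas 2.3.3, numpy 2.4.6, scipy 1.17.1, matplotlib 3.10.9). Positions are from GENCODE M21 on GRCm38 and promoter windows from RefSeq.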

Additional observations from a re-analysis of the deposited data

Results flagged for a closer look

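Among the groups of 4 libraries, 18 were examined for a library far from the other 3 by Dixon's criterion, of which chance marks about 1 in 20, and 3 were marked, all in control cells. Fas had 0.537 CPM in control replicate 4 and 0 in the other 3. With 3 values at 0, any count in the remaining library is marked. The Fas mark was thus fixed in advance, and the chance rate does not apply to it. Fadd had 12.7 CPM in control replicate 4 against 10.5 CPM in each of the others. Casp8 had 6.88 CPM in control replicate 3 against 8.77 to 8.87 CPM in the others. Neither Fadd nor Casp8 was called in any comparison, and Fas did not pass the count filter and was not tested.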

How the results depend on the processing

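Over 24 fitted values of members and 597 alternative values, 562 kept their direction and their side of the threshold, 7 lost a call, 5 gained one and 23 uncalled values turned sign. The 5 gains were all of Tnfsf10 in PD-L1low against control cells. Those without control replicate 1, PD-L1high replicate 1 or replicate 1 all take control replicate 1 out of the comparison. Tnfsf10 against both other groups and Mlkl against control cells, all in PD-L1high cells, kept their calls in all 25 alternatives each. The replicate numbers are shared labels: the deviations of same-numbered libraries correlated by -0.33 to 0.41 (median 0.12, 10 pairs) and those of other pairs by a median of -0.04 (30 pairs), so the data do not show that the numbers pair the samples. Without the replicate block 2, 0 and 2 members were called (PD-L1high against control, PD-L1low against control and PD-L1high against PD-L1low cells), as with it, and 127, 12 and 88 genes of all tested, against 161, 13 and 119 with the block. Of the markers of other cell types, 2 rather than 4 were called between PD-L1high and PD-L1low cells without the block.

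With no filter on low counts, 328, 91 and 354 genes were called in these 3 comparisons, and with DESeq2 and the block kept 249, 47 and 202, each time with 1 member, Tnfsf10, called in PD-L1low against control cells. Limma-voom called 245, 27 and 180. In PD-L1low against control cells, 20 genes were called with scaling by library size only, 22 with DESeq2 without the replicate block and 33 with only the groups compared. The pathway genes called in PD-L1high against control cells were 4 without the filter, 4 with DESeq2 and the block, and 5 with limma-voom, against 2. Between PD-L1low and control cells there was 1 without the filter, against 0. Between PD-L1high and PD-L1low cells they were 5 without the filter and 2 with DESeq2 and the block, with limma-voom or with only the groups compared, against 1. Cflar in PD-L1low against control cells was 0.011 with only the groups compared, against -0.03.

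Leaving out each library or replicate gave 93 to 269 genes in PD-L1high against control cells, 8 to 43 in PD-L1low against control cells and 64 to 143 in PD-L1high against PD-L1low cells, with 2, 0 to 1 and 1 to 2 members. The pathway genes called were 0 to 4 in PD-L1high against control cells and 0 to 3 in PD-L1high against PD-L1low cells, with 0 in both where replicate 3 was left out. Uncalled log2 fold changes that turned sign ranged over -0.26 to 0.61 for Tnfrsf10b and -0.030 to 0.32 for Tnfrsf1a in PD-L1high against control cells. In PD-L1low against control cells they ranged over -0.056 to 0.26 for Fadd, -0.31 to 0.19 for Casp8 and -0.12 to 0.036 for Cflar. The cause of these changes was not tested. With a shorter core (GAAA, any 2 bases, GAA), 3 members rather than 2 held an interferon-stimulated motif, and 8.56% of all windows did. Depth limits Fas, Ripk3 and Tnfrsf10b.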
